A study of Mus musculus with 19 samples.

Results

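The serpins are a superfamily of protease inhibitors, and the 55 genes described here are every gene of the deposited table whose symbol starts with SERPIN, of 19486 genes in all. Of these, 25 belong to clade A, which holds many secreted proteins that hepatocytes make, and also pseudogenes. The other 30 belong to clades B to I, which include plasma serpins that liver secretes as well. RNA had been sequenced from 19 mouse liver tumour samples. Their labels form 5 groups: MYC_HCC with 5 libraries, MYC_Twist1_HCC with 5, and MYC_OFF, MYC_Recur and MYC_Twist1_OFF with 3 each. HCC is hepatocellular carcinoma, which is the tissue given for all 19 samples. All groups carry the name of MYC, and MYC_Twist1_HCC and MYC_Twist1_OFF that of Twist1 as well. The labels give no strain, age, treatment, time point, transgene or promoter, and they do not say what OFF and Recur stand for. They mark the 10 MYC_HCC and MYC_Twist1_HCC libraries as re-analysed and carry no such mark for the other 9, so that group and mark cannot be told apart where an HCC group is compared with the others. Whether each sample is from an animal of its own is not stated, and p-values therefore measure only the spread between these samples.

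A serpin offers its target protease an exposed reactive loop as bait. When the protease cuts the loop, the serpin changes shape and holds the enzyme in a covalent complex that is then cleared. Liver secretes most of the serpins of plasma, among them alpha-1 antitrypsin, antithrombin, alpha-2 antiplasmin and C1 inhibitor, which restrain neutrophil elastase, clotting, clot lysis and complement. Clade B serpins act mostly inside cells, and some family members, such as the hormone carriers and the collagen chaperone, inhibit no protease.

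Summed over all genes, a library held between 507868 and 690310 in the deposited values, and the read depth behind them is unknown. Myc lay between 102 and 180.5 in the libraries of MYC_HCC, MYC_Twist1_HCC and MYC_Recur and between 32.6 and 59.8 in MYC_OFF and MYC_Twist1_OFF. Twist1 reached 0.12 in libraries with Twist1 in their label and 0.27 in the others, so its values do not show the labelled difference and each comparison between groups with and without Twist1 in their names rests on the labels. All 19 hepatocyte marker genes in the table were detected, and their summed value was 10755 to 21306 in MYC_HCC, 8692 to 10921 in MYC_Twist1_HCC, 9915 to 11615 in MYC_Recur, 7937 to 8402 in MYC_OFF and 7419 to 7842 in MYC_Twist1_OFF. In bulk tumour RNA, fewer hepatocytes and less RNA per hepatocyte cannot be told apart. MYC_HCC 4 stood apart: its hepatocyte sum of 21306 compares with 10755 to 12421 in the other 4 MYC_HCC libraries. It lay above those 4 in 15 of 19 measured clade A genes (78.9%) and in 9 of 14 measured genes of clades B to I (64.3%), against 27.3% of all genes tested. MYC_HCC 5 lay away from MYC_HCC 1 to 3 only in some serpins, such as Serpine2 (1.19 against 17.5 to 20.9). In others it lay among them, such as Serpinc1 (258 against 253 to 310). Values without MYC_HCC 4 and 5 are given beside the results that rest on them, and leaving out both does not tell their parts apart.

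A gene counted as measured when 3 or more of the 19 libraries had a value of 1 or higher. That held for 33 serpins (60%) and for 68.0% of all genes. It held for 19 of 25 clade A genes and for 14 of 30 in clades B to I. The difference lies in clade B, with 5 of 20 measured, whereas 9 of the 10 genes of clades C to I were measured. Of the 22 genes not measured, 13 were under 1 in every library, 8 reached 1 in a single library and 1 in 2 libraries. Of the measured genes, 3 passed only through particular groups: Serpina3c needed MYC_HCC, Serpina5 needed both MYC_HCC and MYC_Twist1_HCC, and Serpini1 needed both MYC_OFF and MYC_Twist1_OFF. The differences of Serpina5 and Serpini1 between those groups and others are therefore in part fixed by the filter, and their calls, which are among the counts given here, support nothing. By position, 24 of the 25 clade A genes lie on chromosome 12 and Serpina7 lies on chromosome X. Clade B is split between chromosome 13 with 13 genes and chromosome 1 with 7.

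**Figure D1:**
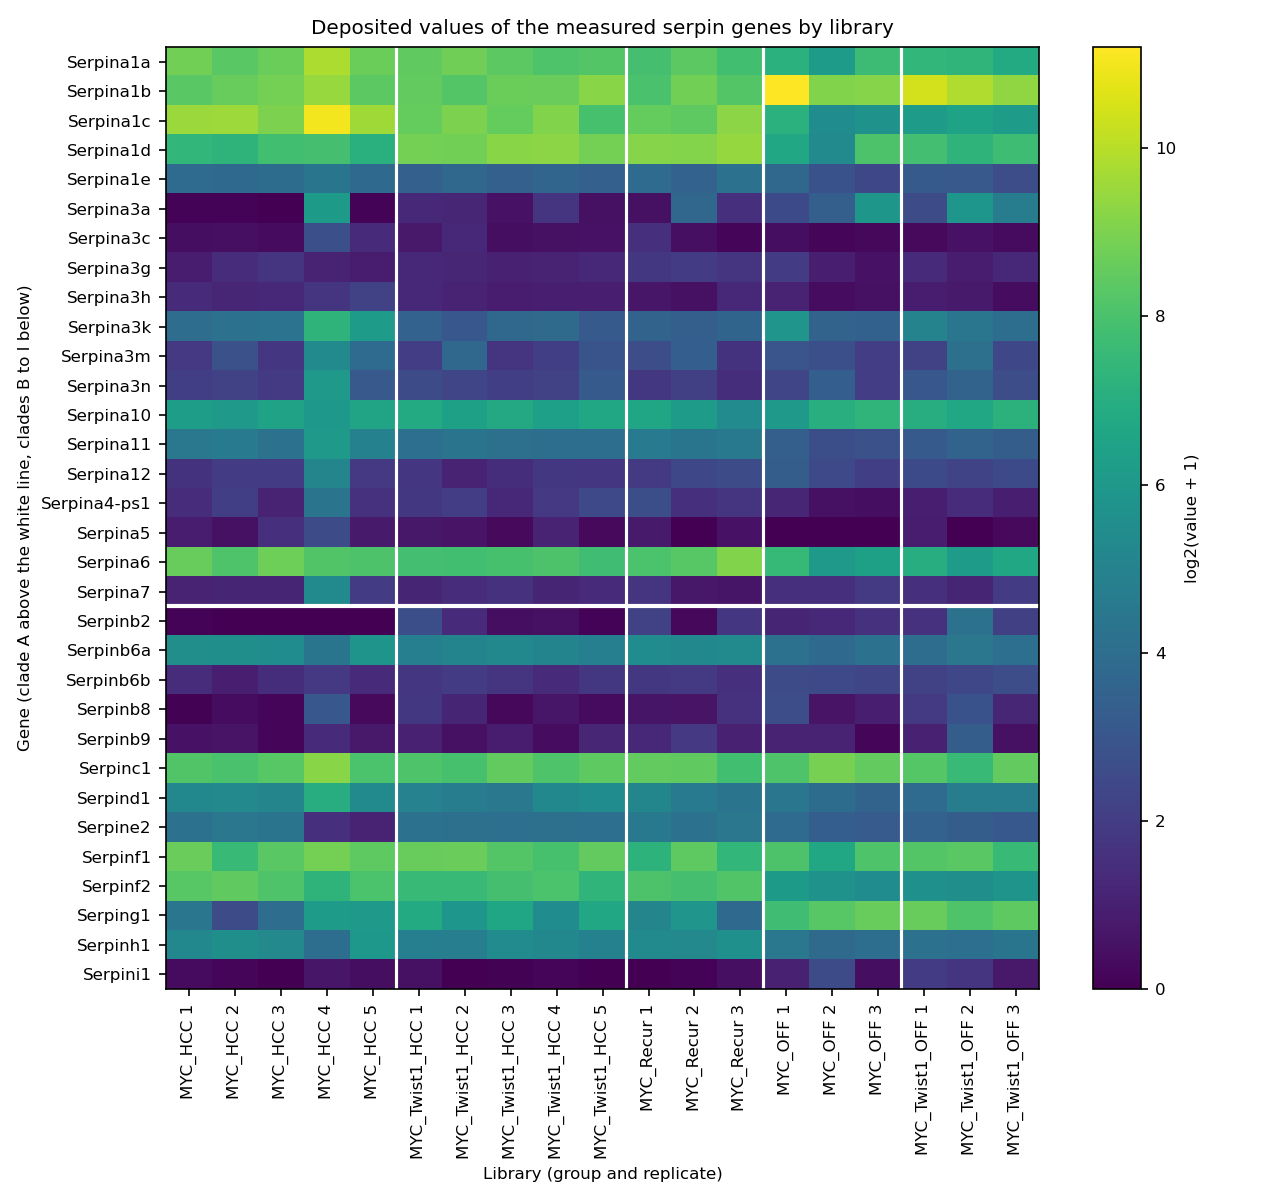
Heat map of 32 of the 33 measured serpin genes (vertical axis, clade A above the white line) in the 19 libraries (horizontal axis, by group), with colour for log2(deposited value + 1). Serpina1c and Serpinf2 are darker and Serping1 is lighter in the MYC_OFF and MYC_Twist1_OFF libraries than in the other 3 groups, and MYC_HCC 4 is lighter than the other MYC_HCC libraries in most of clade A.

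The first question was how the serpins differed between the OFF groups and the HCC groups. In MYC_OFF against MYC_HCC, 9 of the 19 measured clade A genes passed the test, 8 lower and 1 higher. The 8 lower genes were Serpina1a, Serpina1c, Serpina1e, Serpina3h, Serpina4-ps1, Serpina5, Serpina6 and Serpina11, and the higher one was Serpina1b. Among the 14 measured genes of clades B to I, 4 were lower (Serpinb6a, Serpind1, Serpinf2 and Serpinh1) and 3 higher (Serpinb6b, Serping1 and Serpini1). Of the 13253 genes tested, 39.4% were called lower and 18.9% higher, 58.3% in either direction, against 48.5% of the 33 measured serpins in either direction. The median log2 fold change was -0.79 over clade A and 0.16 over clades B to I, against -0.38 over all genes tested. That all-gene median moved to 0.06 when libraries were rescaled by the median of ratios, and the calls over all genes moved from 2511 higher and 5221 lower to 3828 higher and 3540 lower. Under that rescaling clade A had 3 higher and 6 lower with a median of -0.35, and clades B to I had 4 higher and 3 lower with a median of 0.55. On either scaling clade A lay below the all-gene median and clades B to I above it. That order rested on MYC_HCC 4 and 5 for clade A: without them its median was -0.17, above the -0.41 of all genes, with 3 higher and 7 lower calls. Clades B to I then had 3 higher and 5 lower calls and a median of 0.14.

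In MYC_Twist1_OFF against MYC_Twist1_HCC, which shares no library with the comparison above, 5 clade A genes were lower (Serpina1a, Serpina1c, Serpina1d, Serpina6 and Serpina11) and 2 higher (Serpina1b and Serpina3a). In clades B to I, 3 were lower (Serpinb6a, Serpinf2 and Serpinh1) and 4 higher (Serpinb2, Serpinb6b, Serping1 and Serpini1). The background was 33.5% of all genes called lower and 13.1% higher, 46.6% in either direction, against 42.4% of the measured serpins. The medians were -0.23 for clade A and -0.23 for clades B to I, against -0.32 for all genes. After median of ratios scaling the clade A calls were 3 higher and 2 lower, those of clades B to I were 4 higher and 1 lower, and those over all genes 2858 higher and 2767 lower, from 1732 and 4446, with an all-gene median of 0.01. The median of clade A was then -0.09, below that of all genes, and that of clades B to I was 0.22, above it. The place of clade A against all genes thus depended on the scaling. In all, 11 serpins, Serpini1 among them, were called in the same direction in both comparisons, which is 68.8% of the 16 called in the first and 78.6% of the 14 called in the second. None was called in opposite directions. Over all genes tested the corresponding shares were 70.6% and 88.4%. Both comparisons share 1 estimate of the spread, because all 19 libraries entered 1 fit.

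**Figure D2:**
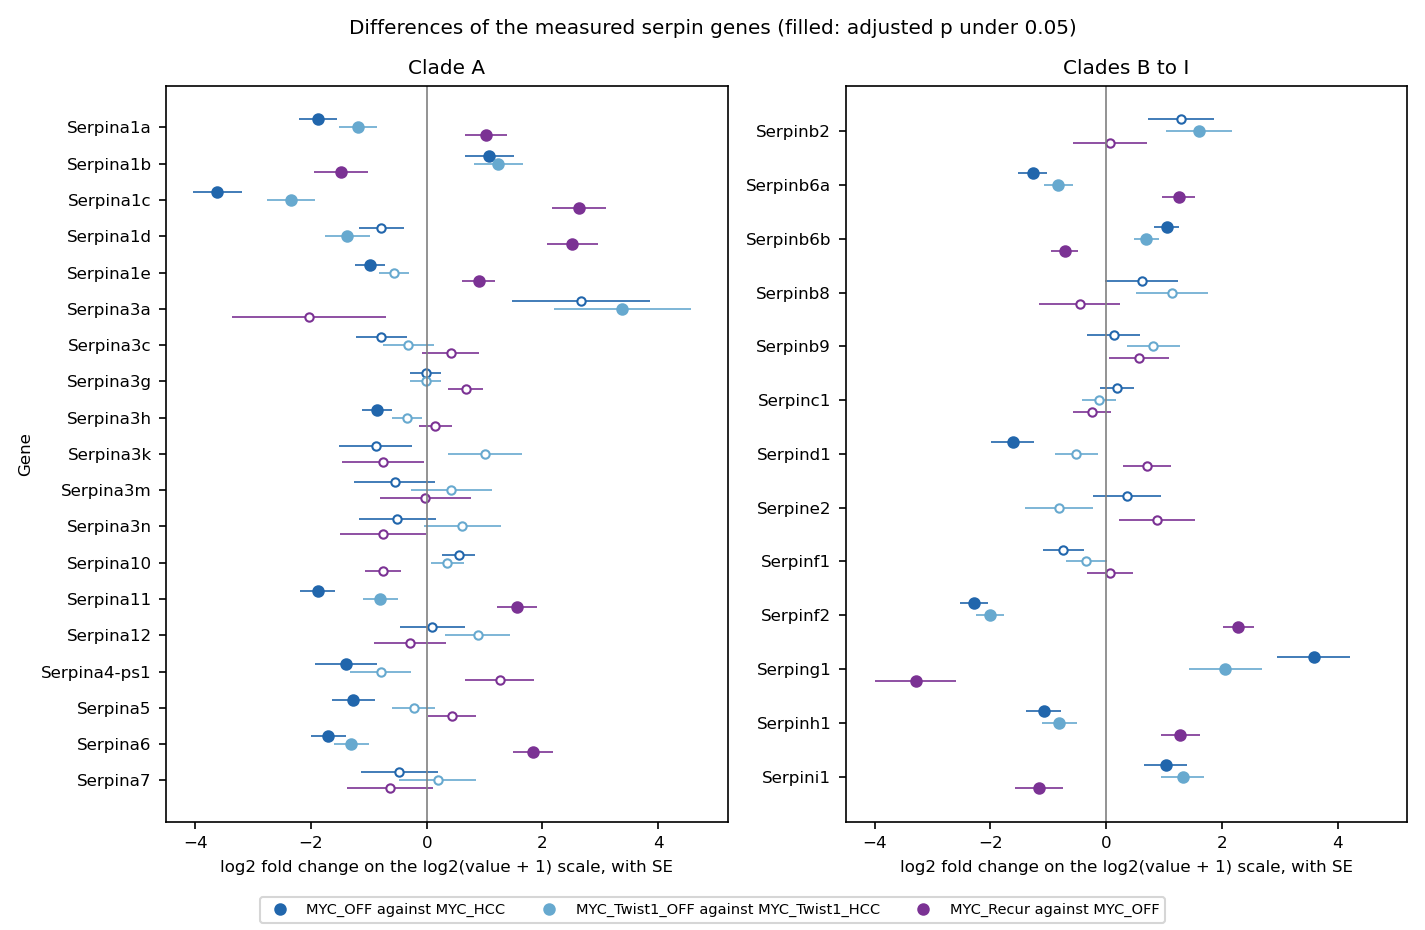
Log2 fold change with its standard error (horizontal axis, on the log2(value + 1) scale) of 32 of the 33 measured serpins (vertical axis) in MYC_OFF against MYC_HCC, MYC_Twist1_OFF against MYC_Twist1_HCC and MYC_Recur against MYC_OFF. Filled points have an adjusted p under 0.05. Serpina1c and Serpinf2 lie far to the left in both OFF comparisons, at -3.62 and -2.28 in the first, and Serping1 lies far to the right at 3.59.

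MYC_Recur against MYC_OFF compares libraries that all lack the mark of re-analysis. In clade A, 6 genes were higher in MYC_Recur (Serpina1a, Serpina1c, Serpina1d, Serpina1e, Serpina6 and Serpina11) and 1 was lower (Serpina1b). In clades B to I, 3 were higher (Serpinb6a, Serpinf2 and Serpinh1) and 3 lower (Serpinb6b, Serping1 and Serpini1). Over all genes, 37.5% were called higher and 12% lower, 49.4% in either direction, with a median of 0.45, and 39.4% of the measured serpins were called. The clade medians were 0.42 and 0.32. Median of ratios scaling gave 4 higher and 2 lower in clade A, 1 higher and 3 lower in clades B to I, and 2750 higher and 2986 lower over all genes, from 4964 and 1585, with an all-gene median of -0.07. The median of clade A was then 0.25, above that of all genes, and that of clades B to I was -0.15, below it. As the values stand, both clade medians lay below that of all genes. With only the compared groups fitted, the calls of Serpina1a, Serpina1b, Serpina1e and Serpinb6b were lost (limma adjusted p = 0.0871, 0.0862, 0.112 and 0.0779). That of Serpini1 was lost as well. Clade A then had 5 higher and 0 lower calls, and clades B to I had 4 higher and 1 lower. This comparison uses the same MYC_OFF libraries as the first one, so its values stand beside the others and are no second observation of the OFF group.

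The serpins whose library values did not overlap between 2 groups were counted as a description, without a test. Against MYC_HCC, 10 serpins lay wholly lower and 3 wholly higher in MYC_OFF, where 34.4% and 15.7% of all genes did. In MYC_Twist1_OFF against MYC_Twist1_HCC, 10 lay lower and 7 higher, against 37.1% and 13.4% of all genes, and in MYC_Recur against MYC_OFF 11 lay higher and 3 lower, against 41.2% and 12.2%. The counts were smaller in MYC_Recur against MYC_HCC, with 3 higher and 1 lower (13% and 7.66% of all genes), and in MYC_Twist1_HCC against MYC_HCC, with 1 higher and 3 lower (5.73% and 5.95%). In MYC_Twist1_OFF against MYC_OFF 1 lay higher and 0 lower (2.13% and 2.22%). As shares of 33 serpins, these counts lie on both sides of the background. The 10 lower in MYC_OFF include Serpina5, and the 7 higher in MYC_Twist1_OFF include Serpini1. Both passed the filter only through the groups where they are high, so their place in these counts supports nothing.

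Alpha-1 antitrypsin is a single gene in humans and a cluster of near-identical genes in mice, and the results in this cluster turn on telling the copies apart. Serpina1a to Serpina1e lie on chromosome 12, and Serpina1f was not measured. The gene models are from GENCODE on GRCm38. The 5 coding sequences, of 1239 bases each, are 96.3% to 98.5% identical in pairs and differ at 86 positions among the 5. The most variable stretch, coding bases 1101 to 1160 in exon 5 of 5, encodes the region of the reactive loop, the bait for the protease. It is shown 5′ to 3′ on the minus strand, on which the genes lie, and capitals mark the 18 positions at which the 5 copies differ.
Serpina1a, chr12:103853757-103853816: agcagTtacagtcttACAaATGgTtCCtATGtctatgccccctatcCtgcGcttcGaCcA
Serpina1b, chr12:103728324-103728383: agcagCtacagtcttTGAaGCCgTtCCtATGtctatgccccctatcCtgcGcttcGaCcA
Serpina1c, chr12:103895094-103895153: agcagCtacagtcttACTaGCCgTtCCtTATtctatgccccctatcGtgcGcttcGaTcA
Serpina1d, chr12:103763762-103763821: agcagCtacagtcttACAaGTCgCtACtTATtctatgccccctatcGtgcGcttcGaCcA
Serpina1e, chr12:103947100-103947159: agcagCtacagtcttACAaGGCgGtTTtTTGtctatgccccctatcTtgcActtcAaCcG
Outside such stretches long runs are shared. Of all 50-base windows along its transcripts, Serpina1c shared 73.3% with another serpin gene, Serpina1a 51.4%, Serpina1d 48.0%, Serpina1e 34.6% and Serpina1b 28.2%. In 100-base windows the shares were 58.5%, 40.8%, 26.3%, 14.4% and 13.8% in the same order. The model of Serpina1b (chromosome 12, 103728156 to 103830373) also spans that of Serpina1d (chromosome 12, 103763594 to 103773592). The sources used here do not say how the authors treated reads that match several copies or whether strand was used in counting, so the values of single copies are uncertain.

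The 5 copies are also alike in a part of their promoters, which is shown here. A stretch of 90 bases, within the 250 bases before the gene's start in RefSeq (GRCm38.p6), is printed 5′ to 3′ on the gene's strand. Capitals mark the 10 positions that differ among the 5. The GENCODE models of Serpina1b and Serpina1e start further upstream, so their stretches lie inside those models.
Serpina1a, chr12:103863625-103863714: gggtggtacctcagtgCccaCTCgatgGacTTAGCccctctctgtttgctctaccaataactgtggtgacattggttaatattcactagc
Serpina1b, chr12:103738200-103738289: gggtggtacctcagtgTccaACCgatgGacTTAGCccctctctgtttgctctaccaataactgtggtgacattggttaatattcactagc
Serpina1c, chr12:103904962-103905051: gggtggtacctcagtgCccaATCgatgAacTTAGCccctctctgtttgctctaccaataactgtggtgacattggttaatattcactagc
Serpina1d, chr12:103773634-103773723: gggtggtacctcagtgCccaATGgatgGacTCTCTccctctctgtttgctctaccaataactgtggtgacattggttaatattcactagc
Serpina1e, chr12:103956960-103957049: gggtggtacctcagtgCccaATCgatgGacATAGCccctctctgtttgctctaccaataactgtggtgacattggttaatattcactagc
The other 80 positions are identical in all 5. Against Serpina1a, the stretch differs at 3 positions in Serpina1b, 2 in Serpina1c, 6 in Serpina1d and 2 in Serpina1e. The stretch was placed around a short motif found in all 5, which favours likeness, and the rest of the promoters was not compared. The sequences are a description, and their part in the values was not tested.

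Serpina1b and Serpina1c moved in opposite directions. Serpina1c, the copy with the most shared sequence, stood at 739.9, 746, 513, 2077 and 769 in the 5 MYC_HCC libraries, at 371, 508, 371, 534 and 243 in MYC_Twist1_HCC and at 379.9, 348 and 607 in MYC_Recur. It stood at 144, 42.3 and 53.1 in MYC_OFF and at 70.4, 89.5 and 70.7 in MYC_Twist1_OFF. Every OFF library lay below every library of the 3 other groups, with MYC_HCC 4 far above the rest. By limma, Serpina1c was lower in MYC_OFF than in MYC_HCC (log2 fold change -3.62 with SE 0.42, adjusted p = 1.39e-06), lower in MYC_Twist1_OFF against its own HCC group (log2 fold change -2.34 with SE 0.42, adjusted p = 0.000218) and higher in MYC_Recur than in MYC_OFF (log2 fold change 2.63 with SE 0.47, adjusted p = 0.000162). All 3 calls held in the 11 other settings and without any single library.

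Serpina1b stood at 2358, 536 and 572 in MYC_OFF and at 1390.4, 929 and 649 in MYC_Twist1_OFF. In the other groups it stood at 325, 385, 458, 718 and 328 (MYC_HCC), 365, 293, 414, 394 and 583 (MYC_Twist1_HCC) and 253, 445 and 294 (MYC_Recur). The 3 MYC_Twist1_OFF libraries lay above the 5 of MYC_Twist1_HCC, and all MYC_OFF libraries above MYC_HCC except that MYC_OFF 2 and 3 lay below MYC_HCC 4. The test called it higher in MYC_OFF (log2 fold change 1.08 with SE 0.42, adjusted p = 0.034) and in MYC_Twist1_OFF (log2 fold change 1.24 with SE 0.42, adjusted p = 0.0224), each against its HCC group, and in MYC_Recur it was lower than in MYC_OFF (log2 fold change -1.48 with SE 0.47, adjusted p = 0.0144). The first call was lost with no filter on low values and with only the compared groups fitted (adjusted p = 0.0554 and 0.0971). It rested on MYC_OFF 1: without it the log2 fold change was 0.39 with an adjusted p = 0.362, and without MYC_HCC 1, 2 or 5 the adjusted p was 0.0693, 0.0577 and 0.0685. The second call ended without MYC_Twist1_OFF 1, MYC_Twist1_OFF 2 or MYC_Twist1_HCC 2 (adjusted p = 0.126, 0.0538 and 0.0502), and that in MYC_Recur without MYC_OFF 1 or MYC_Recur 1 (-0.78 and -1.31, adjusted p = 0.0994 and 0.0575).

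Serpina1d separated the HCC groups from each other. It lay at 169, 156, 224, 236 and 136 in MYC_HCC, at 459, 449, 586, 607 and 463 in MYC_Twist1_HCC and at 571, 554 and 682 in MYC_Recur, and at 102, 40.2 and 272 in MYC_OFF and 228, 156 and 212 in MYC_Twist1_OFF. All 8 libraries of MYC_Twist1_HCC and MYC_Recur lay above all 11 others. Serpina1d was the one serpin called in MYC_Recur against MYC_HCC (log2 fold change 1.73 with SE 0.39, adjusted p = 0.00865) and in MYC_Twist1_HCC against MYC_HCC (log2 fold change 1.49 with SE 0.34, adjusted p = 0.0152). The background was 6.90% higher and 3.93% lower, 10.8% in either direction, in the former, and 3.20% higher and 3.23% lower, 6.43% in either direction, in the latter. Both comparisons use the same 5 MYC_HCC libraries. The call in MYC_Recur held in the 11 other settings and without any single library. That in MYC_Twist1_HCC was lost without MYC_HCC 4 and 5, at the same 1.49 and an adjusted p = 0.0604. Serpina1d was also higher in MYC_Recur than in MYC_OFF (log2 fold change 2.52 with SE 0.44, adjusted p = 0.000138) and, between the Twist1-labelled groups, lower in MYC_Twist1_OFF (log2 fold change -1.37 with SE 0.39, adjusted p = 0.00851), the latter not under median of ratios scaling (-0.92, adjusted p = 0.0821).

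Serpina1a and Serpina1e followed Serpina1c in direction with smaller differences. Serpina1a spanned 326 to 910.3 in MYC_HCC, in MYC_Twist1_HCC 281 to 439 and in MYC_Recur 222 to 328. In the OFF groups it spanned 71.2 to 203 (MYC_OFF) and 115 to 171 (MYC_Twist1_OFF). It was lower in both OFF groups (-1.88 and -1.19, limma adjusted p = 0.000103 and 0.00685) and higher in MYC_Recur than in MYC_OFF (1.02, adjusted p = 0.0272). The last 2 of these calls were lost under median of ratios scaling, where the log2 fold changes were -0.74 and 0.35, and the last also without MYC_OFF 2 (0.61, adjusted p = 0.174) or MYC_Recur 2 (0.86, adjusted p = 0.099). Serpina1e, the copy with the lowest values, ranged from 13.1 to 19.6 in MYC_HCC and 4.33 to 12.5 in MYC_OFF (log2 fold change -0.98, limma adjusted p = 0.00339). Under median of ratios scaling that call was lost, at -0.48 with an adjusted p = 0.0974. In MYC_Recur it lay at 10.6 to 17.9, above MYC_OFF (0.90, adjusted p = 0.0149), a call that ended under the same scaling (0.29, adjusted p = 0.394) and without MYC_OFF 2, MYC_OFF 3 or MYC_Recur 3 (adjusted p = 0.0529, 0.0958 and 0.0705).

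**Figure D3:**
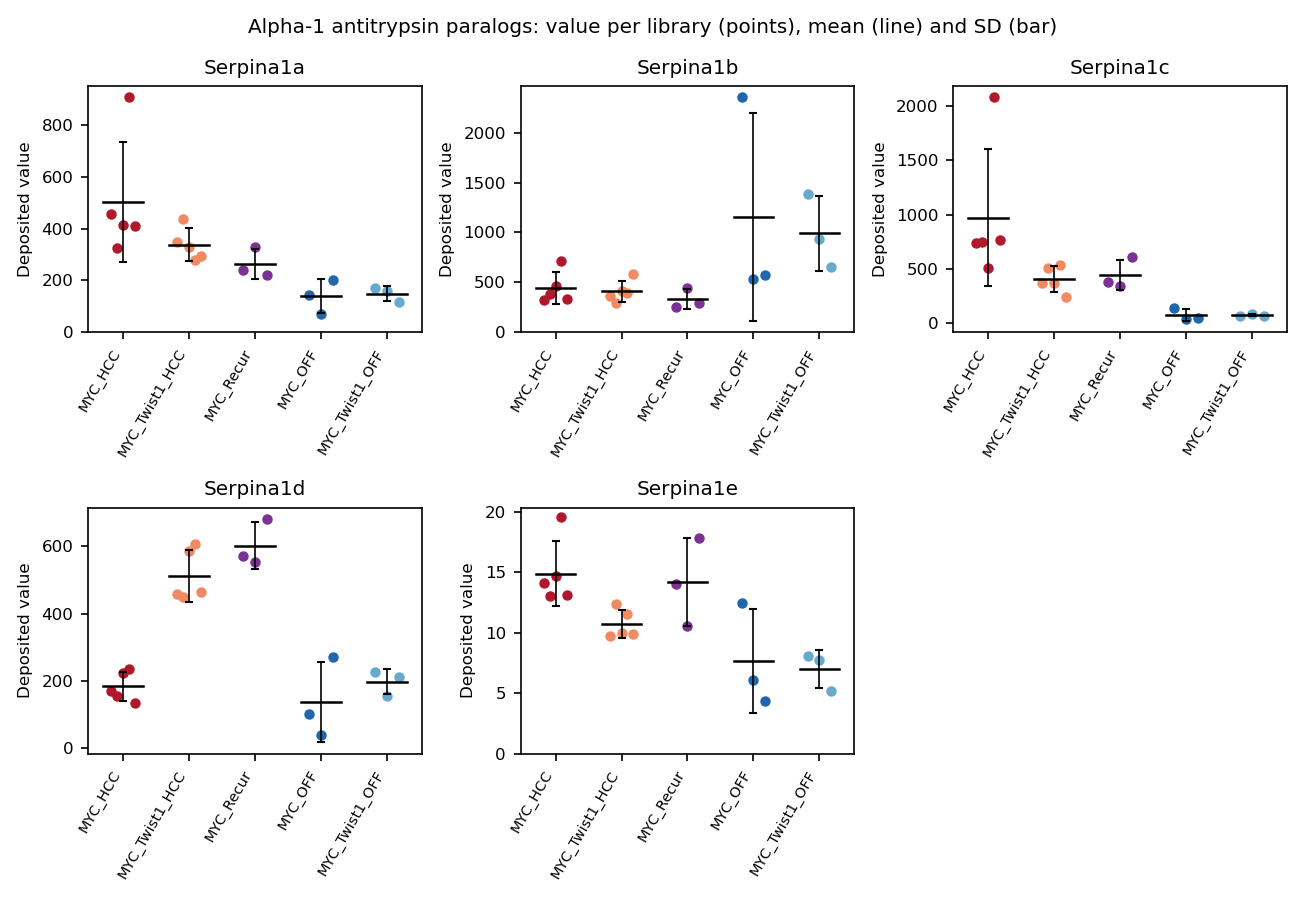
Deposited values (vertical axes, linear and starting near 0) of Serpina1a to Serpina1e by group, with 1 point per library, the mean as a line and the SD as a bar. Serpina1c and Serpina1a are low in the OFF groups, Serpina1b is high there with MYC_OFF 1 at 2358, and Serpina1d is high in MYC_Twist1_HCC and MYC_Recur.

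The makeup of the cluster differed more clearly than its sum. The 5 values summed to 1625 to 3961 in MYC_HCC, 1554 to 1827 in MYC_Twist1_HCC, 1458 to 1823 in MYC_Recur, 695 to 2758 in MYC_OFF and 1052 to 1868 in MYC_Twist1_OFF, so these ranges overlapped. Serpina1b made up 51.8% to 85.5% of the sum in MYC_OFF and 61.7% to 74.4% in MYC_Twist1_OFF. In MYC_HCC it made up 18.1% to 28.2%, in MYC_Twist1_HCC 17.2% to 36.6% and in MYC_Recur 16.1% to 26.4%. The share of Serpina1c was 4.81% to 6.08% in MYC_OFF and 3.77% to 6.72% in MYC_Twist1_OFF. In MYC_HCC it was 31.6% to 52.4%, in MYC_Twist1_HCC 15.2% to 29.9% and in MYC_Recur 20.6% to 33.3%. For both copies the OFF groups did not overlap with the 3 other groups. Serpina1d held 5.96% to 13.8% of the sum in MYC_HCC, but 26.4% to 34.3% in MYC_Twist1_HCC and 32.9% to 39.2% in MYC_Recur. In the OFF groups it held 3.71% to 24.6% (MYC_OFF) and 11.6% to 20.2% (MYC_Twist1_OFF). These shares do not change with the scaling of a library. They are compared between libraries and not between copies, because the values are not stated to be per length, and no test was run on them. MYC_HCC 4, with the high sum, was also at an end of its group in makeup, with the highest Serpina1c share (52.4%, against 31.6% to 46.5% in the other 4) and the lowest shares of Serpina1b (18.1%, against 19% to 28.2%) and Serpina1d (5.96%, against 8.22% to 13.8%).

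**Figure D4:**
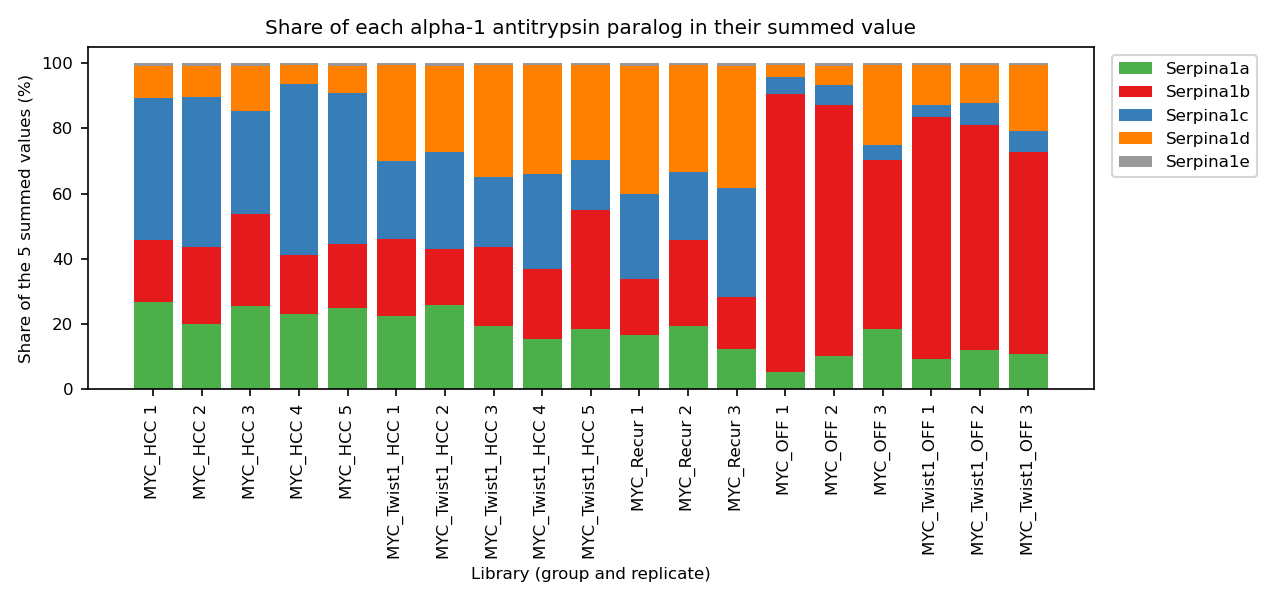
Stacked bars of the share of each alpha-1 antitrypsin copy in the sum of the 5 values (vertical axis, percent) for each library (horizontal axis). The Serpina1b share fills 51.8% to 85.5% of the bar in MYC_OFF and 61.7% to 74.4% in MYC_Twist1_OFF and at most 36.6% in the other 13 libraries, and the Serpina1d share is at most 13.8% in MYC_HCC and at least 26.4% in MYC_Twist1_HCC and MYC_Recur.

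Among the hormone carriers of clade A, Serpina6 encodes corticosteroid-binding globulin, which transports glucocorticoids in plasma. It stood at 382, 278, 424, 281 and 272 in MYC_HCC, 232, 227, 249, 271 and 219 in MYC_Twist1_HCC and 257, 317 and 539 in MYC_Recur, and at 179.6, 63.7 and 82.0 in MYC_OFF and 125, 70.9 and 101 in MYC_Twist1_OFF. No OFF library reached any library of the 3 other groups. It was lower in MYC_OFF (log2 fold change -1.70 with SE 0.30, adjusted p = 0.000126) and in MYC_Twist1_OFF (log2 fold change -1.30 with SE 0.30, adjusted p = 0.00204) than in the HCC groups, and higher in MYC_Recur than in MYC_OFF (log2 fold change 1.84 with SE 0.34, adjusted p = 0.000243), in every one of the 11 other settings and without any single library. Serpina7, the thyroxine-binding globulin gene, was at 38.7 in MYC_HCC 4 and between 0.55 and 2.87 in the other 18 libraries, and it was not called in any comparison.

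Serpina11 lay at 17.1 to 65.4 in MYC_HCC and 5.45 to 9.51 in MYC_OFF (log2 fold change -1.89 with SE 0.30, adjusted p = 4.68e-05), and at 19.3 to 23.9 in MYC_Recur, above MYC_OFF (log2 fold change 1.56, limma adjusted p = 0.00104). Both calls held in all 11 other settings. Its call in MYC_Twist1_OFF (-0.80, adjusted p = 0.0389) was lost in 6 of the 11, with an adjusted p of up to 0.384. It also ended without any 1 of the 3 MYC_Twist1_OFF libraries or of MYC_Twist1_HCC 1 to 4, with an adjusted p between 0.0507 (MYC_Twist1_OFF 2) and 0.133 (MYC_Twist1_OFF 1). Serpina5, which encodes protein C inhibitor, was listed at 0 in all 3 MYC_OFF libraries and at 0.88, 0.42, 1.91, 5.02 and 0.73 in MYC_HCC, with both groups low. Since it passed the filter only through the HCC groups, this is a description. The pseudogene Serpina4-ps1 was at 1.14 to 19.1 in MYC_HCC and 0.34 to 1.31 in MYC_OFF (log2 fold change -1.40, adjusted p = 0.0308), a call lost in 7 of 11 settings, among them the one without MYC_HCC 4 and 5 (-0.82, adjusted p = 0.0655), and without MYC_OFF 2 or 3 (adjusted p = 0.0916 and 0.0966).

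Serpina10, whose product inhibits coagulation factor Xa together with protein Z, had its higher values in MYC_OFF. It lay at 66.7, 127 and 162 in MYC_OFF and 74.8, 66.2, 86.7, 61.6 and 92.8 in MYC_HCC, which overlapped (log2 fold change 0.55 with SE 0.28, adjusted p = 0.104). Under median of ratios scaling it was called higher in MYC_OFF (1.11, adjusted p = 0.0061) and in MYC_Twist1_OFF (0.80, adjusted p = 0.048), so its call depends on the scaling. In MYC_OFF it also depends on MYC_OFF 1, without which Serpina10 was called higher (0.92, limma adjusted p = 0.0101). Serpina12, which encodes the adipokine vaspin, was at 33.2 in MYC_HCC 4 and between 1.08 and 8.88 elsewhere, with no call. Without MYC_HCC 4 and 5 it was higher in MYC_OFF than in MYC_HCC (0.74, adjusted p = 0.043).

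The antichymotrypsin copies, Serpina3a to Serpina3n, are a second expanded mouse cluster, and acute-phase signals are known to raise several of them. Of 11 genes 7 were measured, and 2 were called in any comparison. Serpina3h, a transcribed pseudogene, was at 1.53, 1.30, 1.48, 2.21 and 3.43 in MYC_HCC and 1.2, 0.31 and 0.42 in MYC_OFF (log2 fold change -0.86, limma adjusted p = 0.00821), low in both. Under upper quartile scaling its adjusted p was 0.0548. Serpina3a ran from 0.40 to 2.18 in MYC_Twist1_HCC to 5.02 to 59.0 in MYC_Twist1_OFF (log2 fold change 3.38 with SE 1.19, adjusted p = 0.027). Among the MYC_HCC libraries it stood at 67.9 in MYC_HCC 4 and no higher than 0.09 elsewhere, and its difference between MYC_OFF and MYC_HCC went from 2.67 (adjusted p = 0.0623) to 3.88 (adjusted p = 0.00168) without MYC_HCC 4 and 5. Leaving out MYC_Twist1_OFF 2 or 3 ended the call in MYC_Twist1_OFF (2.64 and 3.21, adjusted p = 0.132 and 0.0738), as did no filter on low values (adjusted p = 0.051).

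The other antichymotrypsin copies were not called as the values stand. Serpina3k was at 15.1, 17.3, 18, 154 and 69.2 in MYC_HCC, 10.3, 7.26, 12.5, 13.6 and 8.11 in MYC_Twist1_HCC, 11, 9.38 and 11.3 in MYC_Recur, 55.8, 11 and 10.02 in MYC_OFF and 31.1, 19.9 and 15.4 in MYC_Twist1_OFF. MYC_HCC 4 and 5 held the highest values of all. Serpina3n, the main acute-phase copy, was at 66.6 in MYC_HCC 4 and between 1.78 and 10.9 in the other 18, and Serpina3m was at 39.5 in MYC_HCC 4 and 2.09 to 16.8 elsewhere. Serpina3c lay between 0.10 and 5.75, and Serpina3g between 0.47 and 2.92, near the filter. These copies share between 4.25% (Serpina3c) and 21.9% (Serpina3h) of their 50-base windows with other serpins, except Serpina3a, and the model of Serpina3m starts at that of Serpina3k and spans it, so their values are uncertain as well.

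The plasma inhibitors outside clade A moved each in its own way. Serping1 encodes C1 inhibitor, which restrains complement C1 and plasma kallikrein. It stood at 19.9, 5.06, 15.1, 71.2 and 63.5 in MYC_HCC, 114, 58.4, 98.5, 43.1 and 102 in MYC_Twist1_HCC and 33.4, 56.9 and 13.4 in MYC_Recur, and at 214, 315 and 392 in MYC_OFF and 381, 274 and 339 in MYC_Twist1_OFF. Every OFF library lay above every other library. Serping1 was higher in MYC_OFF (log2 fold change 3.59 with SE 0.63, adjusted p = 0.000105) and in MYC_Twist1_OFF (log2 fold change 2.06 with SE 0.63, adjusted p = 0.0125), and in MYC_Recur it fell below MYC_OFF (log2 fold change -3.29 with SE 0.70, adjusted p = 0.00087). All 3 calls held when any setting was changed or any single library left out. MYC_HCC 4 and 5 were the highest of their group, and without them Serping1 was also higher in MYC_Twist1_HCC than in MYC_HCC (2.64, adjusted p = 0.00745, against 1.67 and 0.0717 with them).

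Serpinf2, the gene of alpha-2 antiplasmin, the main plasma inhibitor of plasmin, was the mirror image. It stood at 315, 353, 273, 153 and 259 in MYC_HCC, 185, 189, 240.2, 259 and 159.7 in MYC_Twist1_HCC and 269.5, 235 and 283 in MYC_Recur, and at 68.2, 51.1 and 42.5 in MYC_OFF and 48.5, 47.2 and 54.8 in MYC_Twist1_OFF. The 6 OFF libraries lay below the 13 others, and MYC_HCC 4 was the lowest HCC library although it was high in most other plasma serpins. Serpinf2 was lower in MYC_OFF (log2 fold change -2.28 with SE 0.24, adjusted p = 6.75e-07) and in MYC_Twist1_OFF (log2 fold change -2.0 with SE 0.24, adjusted p = 7.59e-06) and higher in MYC_Recur than in MYC_OFF (log2 fold change 2.28 with SE 0.27, adjusted p = 4.67e-06), again in all 11 other settings and without any single library. The neighbouring gene Serpinf1, on the same strand of chromosome 11, encodes the growth and vessel regulator PEDF, which inhibits no protease. It ranged from 191 to 462 in MYC_HCC and 102 to 281 in MYC_OFF, and was not called (log2 fold change -0.74 with SE 0.36, adjusted p = 0.085).

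The heparin-dependent inhibitors of thrombin differed from each other. Serpinc1, the antithrombin gene, was at 287, 253, 309.6, 585 and 258 in MYC_HCC, 277, 244, 365, 274 and 340.0 in MYC_Twist1_HCC, 367, 354 and 224 in MYC_Recur, 276, 486 and 364 in MYC_OFF and 302, 186 and 359.8 in MYC_Twist1_OFF. All groups overlapped, and no comparison called it (log2 fold change 0.19 with SE 0.30, adjusted p = 0.602, for MYC_OFF against MYC_HCC). Under upper quartile scaling it was called higher in MYC_OFF (0.82, adjusted p = 0.0418). Serpind1, the heparin cofactor II gene, was at 36.1, 38.1, 33.4, 125 and 39.9 in MYC_HCC and 20.0, 14.8 and 10.7 in MYC_OFF, without overlap (log2 fold change -1.62 with SE 0.37, adjusted p = 0.00121). In MYC_Twist1_OFF it was at 14.2 to 25.5 against 21.6 to 42.4 in MYC_Twist1_HCC, and was not called (adjusted p = 0.266).

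**Figure D5:**
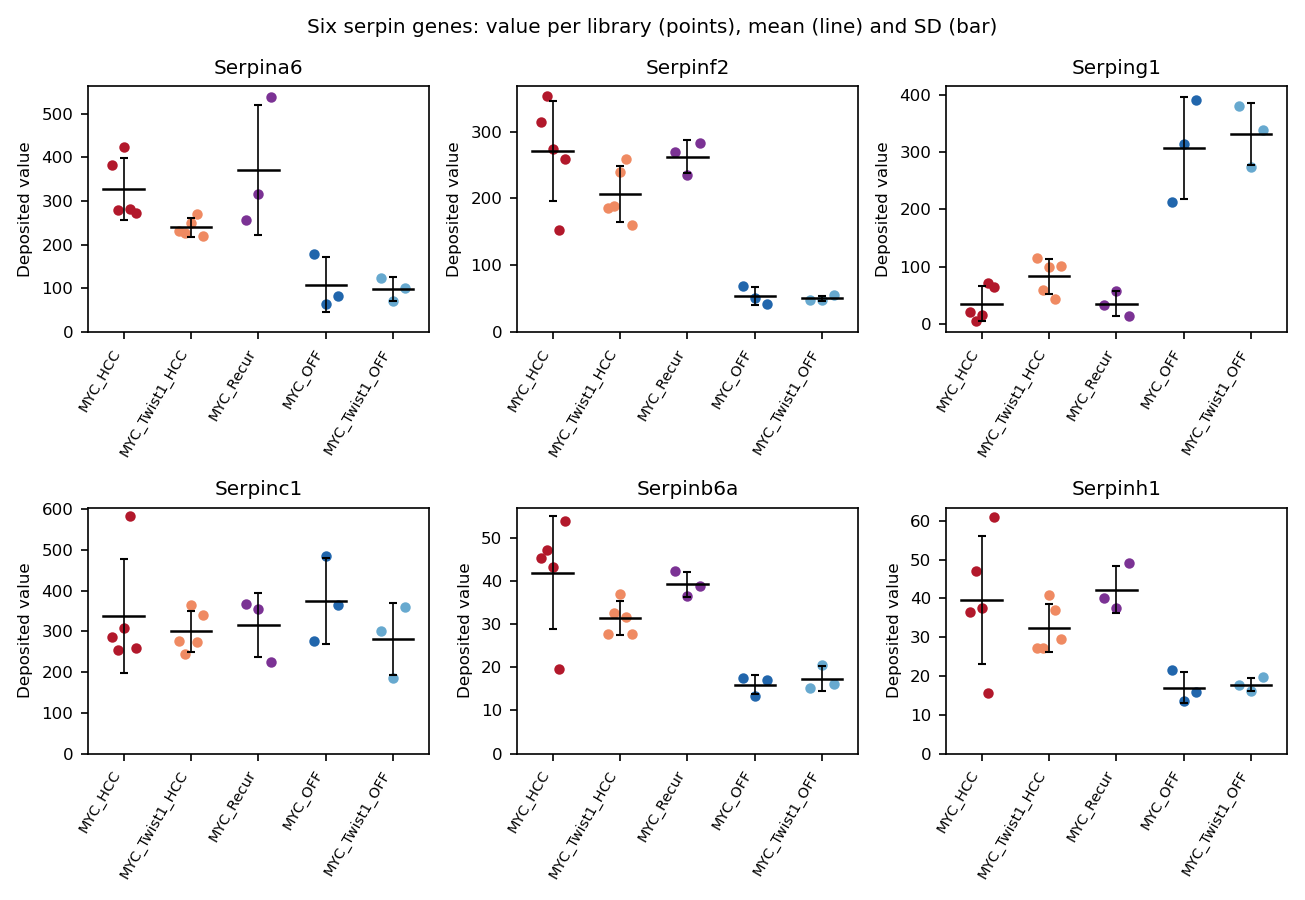
Deposited values (vertical axes, linear) by group for Serpina6, Serpinf2, Serping1, Serpinc1, Serpinb6a and Serpinh1, with 1 point per library, the mean as a line and the SD as a bar. Serpina6 and Serpinf2 are low and Serping1 is high in both OFF groups without overlap, while the Serpinc1 values of all groups overlap.

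In clade B, the intracellular serpins, Serpinb6a was low in the OFF libraries. It was at 45.2, 47.3, 43.2, 19.7 and 54.0 in MYC_HCC, 27.7, 32.5, 37.1, 31.7 and 27.6 in MYC_Twist1_HCC and 42.3, 36.5 and 38.9 in MYC_Recur, and at 17.5, 13.4 and 17.1 in MYC_OFF and 15.1, 20.6 and 16.2 in MYC_Twist1_OFF. It was lower in MYC_OFF (log2 fold change -1.27 with SE 0.25, adjusted p = 0.000297) and, as the values stand, lower in MYC_Twist1_OFF (-0.83, adjusted p = 0.0115) and higher in MYC_Recur than in MYC_OFF (1.25, adjusted p = 0.00119). The latter 2 calls were lost under median of ratios scaling (-0.40 and 0.60, adjusted p = 0.171 and 0.0657), and that in MYC_Twist1_OFF also without MYC_Twist1_OFF 1 (adjusted p = 0.0555). Its relative Serpinb6b moved the other way, from 0.91 to 2.60 in MYC_HCC to 4.02 to 4.91 in MYC_OFF (log2 fold change 1.04 with SE 0.21, adjusted p = 0.000465) and from 1.58 to 2.83 in MYC_Twist1_HCC to 3.62 to 5.36 in MYC_Twist1_OFF (0.70, adjusted p = 0.0132). In MYC_Recur it was at 1.82 to 2.7, below MYC_OFF (-0.72, adjusted p = 0.019). These last 2 calls ended without MYC_Twist1_OFF 3 (0.57, adjusted p = 0.0733) and without MYC_Recur 3 (-0.60, adjusted p = 0.077).

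Serpinb2, which encodes plasminogen activator inhibitor 2, was listed at 0 in 4 MYC_HCC libraries and at 0.09 in the fifth, and was at 1.21, 1.36 and 2.01 in MYC_OFF and 2.02, 17.6 and 3.29 in MYC_Twist1_OFF. It was called in MYC_Twist1_OFF against MYC_Twist1_HCC (log2 fold change 1.61, limma adjusted p = 0.0284), where MYC_Twist1_HCC 1 at 5.51 lay above MYC_Twist1_OFF 1 and 3, and leaving out MYC_Twist1_OFF 2 ended the call (0.82, adjusted p = 0.248). It also ended without MYC_Twist1_HCC 3, 4 or 5 (adjusted p = 0.0604, 0.0601 and 0.0638), with only the compared groups fitted (0.0772) and with the replicate block (1.37, adjusted p = 0.0965). The gene shares 10.4% of its 50-base windows with Serpinb10, so its low values are uncertain. Serpinb8 and Serpinb9, the latter the intracellular inhibitor of granzyme B, lay between 0.05 and 7.17 and between 0.15 and 8.97, with no call.

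The remaining clades hold a chaperone and a brain serpin, among others. Serpinh1 encodes HSP47, the collagen chaperone of the endoplasmic reticulum, and was at 36.4, 47.2, 37.6, 15.7 and 61.0 in MYC_HCC, 27.2, 27.1, 40.8, 37.1 and 29.5 in MYC_Twist1_HCC, 40.1, 37.6 and 49.0 in MYC_Recur, 21.4, 13.6 and 15.8 in MYC_OFF and 17.6, 16.2 and 19.7 in MYC_Twist1_OFF. The OFF libraries were the low ones, apart from MYC_HCC 4, which lay among them. Its calls (-1.08 in MYC_OFF, -0.81 in MYC_Twist1_OFF and 1.28 in MYC_Recur against MYC_OFF, limma adjusted p = 0.00555, 0.0357 and 0.00452) were all lost under median of ratios scaling, where the first was -0.54 with an adjusted p = 0.124. The second also ended without any 1 of MYC_Twist1_OFF 1 to 3, MYC_Twist1_HCC 3 or MYC_Twist1_HCC 4, with an adjusted p of 0.0555 to 0.104. Serpini1, the neuroserpin gene, was low everywhere, at 1.05, 5.09 and 0.34 in MYC_OFF and 2.84, 2.32 and 0.70 in MYC_Twist1_OFF and at most 0.62 in the other 13 libraries, so that only MYC_OFF 3 lay within their range. Since it passed the filter only through the OFF groups, its differences (1.03 and 1.33 in the OFF groups and -1.16 in MYC_Recur against MYC_OFF) are a description. Without MYC_OFF 2 the first was 0.41.

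In clade E, values turned on MYC_HCC 4 and 5. Serpine2, the protease nexin 1 gene, was at 17.5, 20.9, 18.7, 1.98 and 1.19 in MYC_HCC, with MYC_HCC 4 and 5 far below the rest, and at 14.3, 9.07 and 8.34 in MYC_OFF. With all libraries it was not called (0.36, adjusted p = 0.61), and without MYC_HCC 4 and 5 it was lower in MYC_OFF (-0.82, adjusted p = 0.00198). It was at 15.9 to 17.2 in MYC_Twist1_HCC, 17.1 to 21.9 in MYC_Recur and 7.58 to 10.4 in MYC_Twist1_OFF.

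The remaining comparisons called few serpins. MYC_Recur against MYC_HCC and MYC_Twist1_HCC against MYC_HCC each called Serpina1d alone, as described above, and the clade A medians were -0.37 and -0.49 against 0.08 and -0.01 over all genes. Without MYC_HCC 4 and 5 these clade A medians were -0.01 and -0.15. The all-gene calls of 914 higher and 521 lower in the first became 702 and 696 under median of ratios scaling, and the 424 and 428 of the second became 504 and 334 under upper quartile scaling. In MYC_Twist1_OFF against MYC_OFF, limma called no serpin, none had an unadjusted p under 0.05, and 1 gene of 13253 was called (0.00755%). The largest difference was that of Serpinb2 (1.31, SE 0.64, adjusted p = 1). The difference between the 2 OFF comparisons, tested as an interaction, was called for no serpin and for 0.0981% of all genes (0.0226% upward and 0.0755% downward). Among the serpins, 4 had an unadjusted p under 0.05 there: Serpina11 (1.09, SE 0.43), Serpina1c (1.28, SE 0.59), Serpina3k (1.89, SE 0.90) and Serpind1 (1.10, SE 0.52), all with an adjusted p of at least 0.587.

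Genes around the serpins were counted from lists of their proteases, partners and regulators. Over all genes tested, 39.4% were lower and 18.9% higher in MYC_OFF against MYC_HCC (median -0.38), 33.5% lower and 13.1% higher in MYC_Twist1_OFF against MYC_Twist1_HCC (-0.32), and 37.5% higher and 12% lower in MYC_Recur against MYC_OFF (0.45), and the counts of each list are to be read against these shares. Under median of ratios scaling the all-gene calls in the first turn to 3828 higher and 3540 lower, and counts under that scaling stand beside most lists. One list held proteases of plasma and clot lysis together with membrane proteases and Furin. Of its 20 tested genes, 12 were lower and 3 higher in MYC_OFF than in MYC_HCC (median -1.03), 8 lower and 1 higher in MYC_Twist1_OFF (-0.58), and 9 higher and 1 lower in MYC_Recur than in MYC_OFF (0.68). After median of ratios scaling these were 9 lower and 3 higher (-0.65), 6 lower and 3 higher (-0.18), and 4 higher and 3 lower (0.15). Hpn, the membrane protease hepsin, went from 65.6 ± 12.7 (SD, n = 5) in MYC_HCC to 8.55 ± 2.56 (n = 3) in MYC_OFF (-2.81, limma adjusted p = 7.74e-08). Plg, the plasminogen gene, whose active product is the target of alpha-2 antiplasmin, was also lower (-2.09, adjusted p = 3.1e-06), while Furin was higher (0.84, adjusted p = 0.00458). Another list held leukocyte proteases, lysosomal cathepsins and the peroxidase gene Mpo. Of its 9 tested genes, 4 were lower and 2 higher in MYC_OFF (median -0.71), near the shares over all genes, and 3 were lower and 3 higher after that scaling. The lower ones included the lysosomal cathepsin Ctsl (-3.13, adjusted p = 4.79e-07).

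Serpins fold in the endoplasmic reticulum and leave it with the help of cargo receptors. Of 15 genes of folding and secretion, 9 were lower and 1 higher in MYC_OFF (median -0.92), 12 lower and none higher in MYC_Twist1_OFF (-0.76), and 10 higher and none lower in MYC_Recur than in MYC_OFF (0.90), where the shares over all genes were 39.4% lower and 18.9% higher, 33.5% and 13.1%, and 37.5% higher and 12% lower. After median of ratios scaling the counts were 7 lower and 2 higher (-0.37), 4 lower and 1 higher (-0.39), and 4 higher and 1 lower (0.22). Calr, the chaperone calreticulin, was at 740.1 ± 75.5 in MYC_HCC (n = 5) and 103 ± 44.8 in MYC_OFF (n = 3) (-2.93, limma adjusted p = 2.53e-07), and Lman1, a cargo receptor of secreted glycoproteins, was at 111 ± 24.8 and 19.1 ± 8.91 (-2.54, adjusted p = 4.47e-07). The chaperone Hspa5 was not called (-0.08, adjusted p = 0.818). Among 12 liver transcription factors known at serpin promoters, 7 were lower and 1 higher in MYC_OFF (median -0.90), 5 lower and 1 higher in MYC_Twist1_OFF (-0.33), and 5 higher and 3 lower in MYC_Recur than in MYC_OFF (0.48), of which the 5 lower in MYC_Twist1_OFF and the 5 higher in MYC_Recur are near the shares over all genes. After the same scaling 4 were lower and 3 higher in MYC_OFF (-0.39). Foxa2, the higher one, was at 697 ± 366 in MYC_OFF and 7.77 ± 5.15 in MYC_HCC (6.31, adjusted p = 2.85e-07), and Hnf4a was not called (-0.37, adjusted p = 0.219).

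Of 12 tested cofactors and clearance receptors, 3 were lower and 1 higher in MYC_OFF (median -0.29), a smaller share lower than the 39.4% of all genes, and after median of ratios scaling 1 was lower and 3 higher. Among those lower as the values stand was Vtn, the gene of the plasma adhesion protein vitronectin, at 36.1 ± 22.7 against 388 ± 151 (-3.49, limma adjusted p = 3e-07). Of 12 collagens and enzymes served by or working beside HSP47, 4 were lower and none higher in MYC_OFF (median -0.45), near the share and the median of all genes, and after that scaling 3 were lower and 1 higher. Col4a2 had the smallest p among them (-1.77, adjusted p = 4.79e-05).

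Markers of hepatocytes and of other cells were counted in the same way. Of 19 hepatocyte markers, 15 were lower and 2 higher in MYC_OFF than in MYC_HCC (median -2.02), 10 lower and 2 higher in MYC_Twist1_OFF (-1.10), and 12 higher and 2 lower in MYC_Recur than in MYC_OFF (1.12). The shares over all genes were 39.4% lower and 18.9% higher, 33.5% and 13.1%, and 37.5% higher and 12% lower. After median of ratios scaling the counts were 12 lower and 2 higher (-1.46), 9 lower and 2 higher (-0.65), and 7 higher and 2 lower (0.46). Alb was lower in MYC_OFF (-2.79, limma adjusted p = 2.09e-06) and Apoh higher (3.39, adjusted p = 3.35e-05), so hepatocyte genes, like the alpha-1 antitrypsin copies, went in both directions. The summed endothelial markers were 75.9 to 107 in MYC_OFF and 85.7 to 155 in MYC_Twist1_OFF, against 12.8 to 22.4 in MYC_Recur, 17.8 to 106 in MYC_HCC, where the 106 is MYC_HCC 4, and at most 38.1 in MYC_Twist1_HCC. Of 7 tested endothelial markers, 3 were higher and 2 lower in MYC_OFF (median -0.05), so the list went in both directions. Pecam1, which encodes the endothelial protein CD31, was among the higher ones (2.63, limma adjusted p = 0.000362) and does not stand for the list. In all, 2 of the 10 endothelial markers were under 1 in every library. The T and NK cell markers summed to 9.22 to 33.1 in MYC_OFF and 4.49 to 9.96 in MYC_HCC, with 3 of 7 tested higher and 3 of 12 under 1 everywhere. In MYC_OFF against MYC_HCC, the other lists had 2 higher and 3 lower of 10 macrophage markers, 2 and 1 of 8 for neutrophils and monocytes, 1 and 3 of 10 for stellate cells and fibroblasts, 0 and 2 of 4 for cholangiocytes, and 2 and 1 of 3 for erythroid cells. Median of ratios scaling turned the macrophage count to 5 higher and 1 lower and that of neutrophils and monocytes to 4 and 1. The part of these cells in the serpin values was not tested.

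Of the genes not measured, 6 were from clade A (Serpina1f, Serpina3b, Serpina3f, Serpina3i, Serpina3j and Serpina9), with no value above 1.89. Another 15 were from clade B: Serpinb1a, Serpinb1b, Serpinb1c, Serpinb3a, Serpinb5, Serpinb6c, Serpinb7, Serpinb9b, Serpinb9c, Serpinb9d, Serpinb9e, Serpinb9f, Serpinb9g, Serpinb10 and Serpinb12. Serpine3 was the last, with at most 1.93. Serpinb9e was listed at 0 in all 19 libraries. In clade B, 2 genes were high in a single library each, chosen here after their values were seen: Serpinb1a, an inhibitor of neutrophil proteases, at 100.9 in MYC_HCC 4, and Serpinb12 at 20.4 in MYC_Recur 3.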

How the data were processed

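RNA was sequenced from 19 liver tumour samples. The table the authors deposited gives, for each gene symbol, a normalized signal and no raw counts. The tools named, per the submitters' processing notes, are Trimmomatic, STAR, Picard, featureCounts and DESeq2, with mm10 as the genome. Versions, settings and the formula behind the values were not given in the sources used here. Of 19511 symbols, 25 bare numbers were left out, which left 19486 genes. The table holds 0 columns of other samples. Values were used as deposited. Genes at 1 or more in at least 3 libraries (13253) entered 1 limma fit (version 3.58.1, R 4.3.3, intensity trend) of log2(value + 1) on the 5 groups, which leaves 14 residual degrees of freedom. Tests were two-sided, with Benjamini-Hochberg adjustment over all genes in each comparison, and a change was called at an adjusted p under 0.05. There were 7 comparisons. Fold changes on this scale understate changes of low genes. The fit was tested on simulated data. Group values are mean ± SD. All 55 symbols matched GENCODE M21, whose GRCm38 coordinates are used. RefSeq promoters (GRCm38.p6) were found for 25 of the 33 measured serpins.

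The members, the gene lists and the alternatives were chosen with earlier results of these data known. Every measured serpin is named except 1, which is counted but not reported here. From the lists, counts are given, with values for some of the genes of smallest p and a few others named for their role after their values were seen. Not every list, nor each direction within a list, has a gene with its values. Alternatives were 3 other scalings (median of ratios, upper quartile, equal totals), pseudocounts of 0.1 and 5, no filter and a filter on the mean, no trend, only the compared groups, a replicate block, and leaving out libraries.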

Additional observations from a re-analysis of the deposited data

Results flagged for a closer look

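In the groups of 5, each measured serpin described here was checked for a library far from the 4 others, where the gap to the nearest other library exceeds 0.71 of the group's whole range. Of 64 groups of values, 15 held such a library. For independent, normally distributed values this cut marks about 1 in 20 groups. The values here were not transformed and genes of 1 library are not independent cases, so their chance rate is unknown. MYC_HCC 4 accounts for 13 of the 15. Among the plasma serpins of clade A, it was high in Serpina1c (2077 against at most 769 in the other 4), Serpina1a (910.3 against at most 456), Serpina11 (65.4 against 29.1), Serpina1e (19.6 against 14.7), Serpina12 (33.2 against 2.99) and Serpina7 (38.7 against 2.87). The antichymotrypsin copies Serpina3n (66.6 against 7.75), Serpina3a (67.9 against 0.09) and Serpina3c (5.75 against 1.57) and the pseudogene Serpina4-ps1 (19.1 against 3.18) were also high there. So were Serpinc1 (584.6 against 309.6), Serpind1 (124.7 against 39.9) and Serpinb8 (7.17 against 0.30). Both other cases were of Serpinb2, at 0.09 in MYC_HCC 1 where the other 4 were listed at 0, and at 5.51 in MYC_Twist1_HCC 1 against at most 1.59.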

How the results depend on the processing

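The counts of called serpins were recomputed in 11 other settings and 19 times with 1 library left out. Fitting only the compared groups raised the clade A count in MYC_Twist1_OFF against MYC_Twist1_HCC from 7 to 11 and gave 1 call in clades B to I in MYC_Recur against MYC_HCC, which had 0. A pseudocount of 0.1 also gave 1 there, and 1 in clades B to I in MYC_Twist1_HCC against MYC_HCC in place of 0. Without MYC_HCC 4 and 5, clade A had 0 calls in MYC_Twist1_HCC against MYC_HCC in place of 1, and clades B to I had 1. Single libraries were left out with these ranges for clade A and for clades B to I: 8 to 11 and 6 to 8 in MYC_OFF against MYC_HCC, 4 to 9 and 4 to 8 in MYC_Twist1_OFF against MYC_Twist1_HCC, 5 to 8 and 5 to 6 in MYC_Recur against MYC_OFF, 1 to 2 and 0 to 0 in MYC_Recur against MYC_HCC, and 1 to 3 and 0 to 2 in MYC_Twist1_HCC against MYC_HCC. The changes by over 1.5 times came without MYC_Twist1_OFF 2 and 1 in their own comparison (clade A 4, clades B to I 4), MYC_OFF 1 (clade A 2 in MYC_Recur against MYC_HCC and 3 in MYC_Twist1_HCC against MYC_HCC), and MYC_HCC 4 and 5 in MYC_Twist1_HCC against MYC_HCC (clades B to I 2 and 1). Counts stayed at 0 in MYC_Twist1_OFF against MYC_OFF and in the interaction in every setting. Of 45 calls of a serpin in a comparison, 21 were lost in at least 1 of the 11 settings and 16 without some single library, and 31 uncalled pairs passed in some setting. Serpine2 in MYC_OFF against MYC_HCC reversed, to -0.82, without MYC_HCC 4 and 5. With the replicate number as a block, clade A had 3 calls in MYC_Twist1_HCC against MYC_HCC in place of 1, and no other clade count moved by over 1.5 times. Whether the numbers pair the samples is not stated, and correlations within groups this small cannot decide it. The deviations of same-numbered samples correlated above 0.1 in 0 of 3 pairs for MYC_OFF and MYC_HCC and for MYC_Recur and MYC_OFF. They did so in 1 of 3 for MYC_Recur and MYC_HCC and in 2 of 5 for MYC_Twist1_HCC and MYC_HCC. The count was 2 of 3 both for MYC_Twist1_OFF and MYC_Twist1_HCC (highest 0.384) and for MYC_Twist1_OFF and MYC_OFF (highest 0.308). The causes of these changes were not tested. Without read counts, no value has a counting error of its own.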
